A study of Mus musculus with 26 samples.

Results

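The 7 libraries of monocytes sorted from the spleen of KPC mice, which develop pancreatic ductal adenocarcinoma from engineered alleles, did not form 1 uniform group: some carried more RNA of MHC class II genes and others more RNA of granulocyte genes. The libraries were chosen by their measured values: each was given a score, the mean deposited log2 value of H2-Aa, H2-Ab1, H2-Eb1, Cd74 and Ciita minus the mean of Cxcr2, Mmp9, Retnlg, Il1r2 and Fpr1. The 3 highest libraries are called the class II-side here and the 4 lowest the granulocytic-side. They are 7 of the 14 sorted-cell libraries and of 26 libraries in the series, and the 12 tumour libraries were not analysed here. GS9820 monocytes came from KPC mice given GS9820, which inhibits p110δ, a catalytic subunit of phosphoinositide 3-kinase (PI3K), and are labelled 14 days (n = 4). Vehicle monocytes came from KPC mice given the vehicle, with no day in the labels (n = 3). Polymorphonuclear cells (PMN), sorted from spleens of the same 2 treatments (n = 4 GS9820 and n = 3 vehicle), served as the comparison for granulocyte genes. The titles mark the monocytes as high and the PMN as low, with no marker named in them. Age, sex, the rest of the gate of the sort and whether a library held 1 mouse or several are not given in the labels.

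Neutrophils and monocytes arise from shared myeloid progenitors in the marrow, and in tumour-bearing mice both cell types and their precursors accumulate in the spleen. Neutrophils make granule proteins stage by stage as they mature and enter tissue through chemokine receptors such as CXCR2. Monocytes can take on features of dendritic cells, which load peptides onto MHC class II molecules under the control of the transactivator CIITA, with the invariant chain CD74 and the H2-DM proteins guiding the loading. Interferons raise both classes of MHC molecules and a set of antiviral genes.

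The sides were cut from the values themselves, over both treatments, so every difference between them is a description and none was tested. A gene is called higher or lower in the class II-side when the sides do not overlap, that is, when all 3 libraries of the class II-side lie above or below all 4 of the granulocytic-side. The difference is the median of the class II-side minus the median of the granulocytic-side on the deposited log2 scale. Of 13968 genes kept, 2105 were higher (15.1%) and 1926 were lower (13.8%), 28.9% in either direction. The median difference over all kept genes was 0.03, and the 10th and 90th percentiles were -0.65 and 0.60. Library values of a gene are listed by falling score: GS9820 4, GS9820 2 and vehicle 3 on the class II-side, and GS9820 3, GS9820 1, vehicle 2 and vehicle 1 on the granulocytic-side. The shares of all genes change with the libraries used. With 1 library left out, 16.7% to 22.6% were higher and 14.5% to 19.7% lower. With GS9820 3 placed on the class II-side, 9.96% were higher and 7.83% lower. Counts of a list under such a setting are to be read beside these shares.

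The score was 5.64, 5.40 and 5.29 in the class II-side libraries, against 3.34, 0.11, 0.05 and -0.55 in the granulocytic-side libraries. The step between vehicle 3 and GS9820 3, where the sides were cut, was 1.95, and the step below GS9820 3 was wider, at 3.23. The mean of the 5 class II genes was 10.47, 9.79 and 9.13 in the class II-side libraries, against 9.38, 6.87, 7.12 and 7.29 in the granulocytic-side libraries. GS9820 3 thus lay above vehicle 3 in its class II genes. The mean of the 5 granulocytic genes was 4.83, 4.39 and 3.84 in the class II-side libraries, against 6.04, 6.75, 7.06 and 7.84 in the granulocytic-side libraries, and here the sides did not overlap. GS9820 3 stood apart from the other 3 granulocytic-side libraries.

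**Figure D1:**
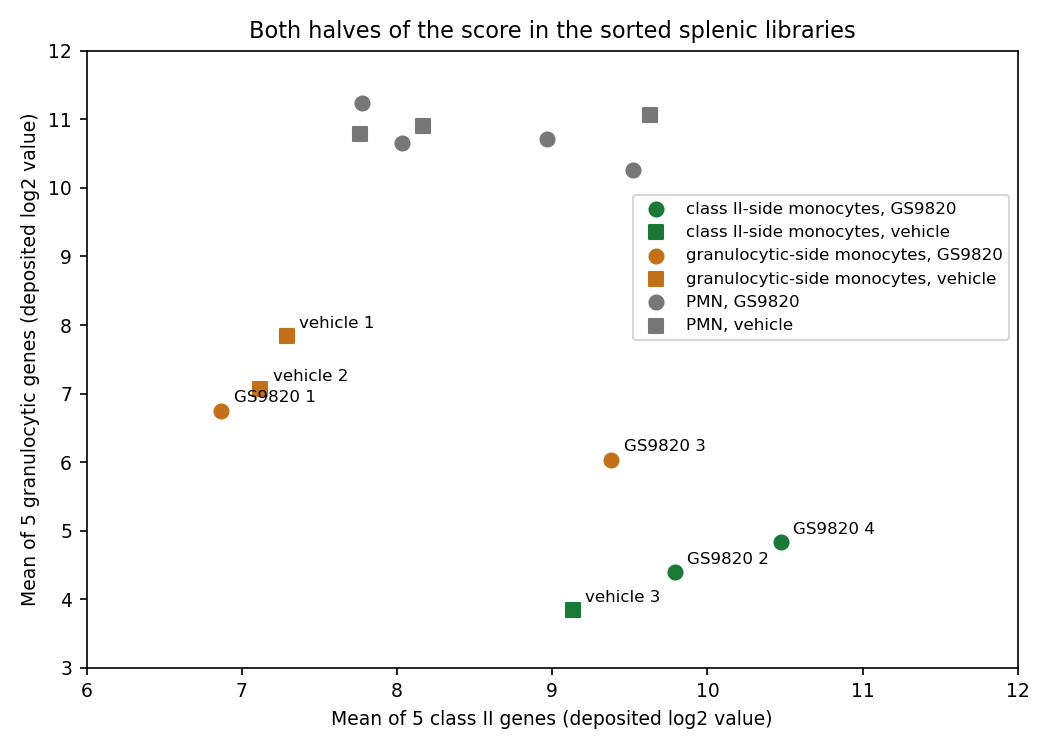
Mean of the 5 class II genes (x axis) and of the 5 granulocytic genes (y axis), both as deposited log2 values, for each sorted splenic library. The 3 class II-side monocyte libraries lie at 3.84 to 4.83 on the granulocytic axis, the granulocytic-side at 6.04 to 7.84 and the PMN at 10.25 to 11.24, while the PMN spread over 7.76 to 9.63 on the class II axis.

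Both treatments occurred on each side: 2 GS9820 and 1 vehicle library on the class II-side, and 2 GS9820 and 2 vehicle libraries on the granulocytic-side. By treatment, the score was 5.64, 5.40, 3.34 and 0.11 in GS9820 monocytes, against 5.29, 0.05 and -0.55 in vehicle monocytes, so the treatments overlapped. GS9820 was compared with vehicle in monocytes by limma over all kept genes (14 libraries, Benjamini-Hochberg adjustment). At a limma adjusted p of 0.05, 0 of 13968 genes (0%) passed, and 335 had an unadjusted p below 0.05. If no gene differed, a share of about 0.05 would fall below that unadjusted p, and 335 is under that share. Without vehicle 3, 2984 genes had an unadjusted limma p below 0.05, above that share, and 0 passed the adjusted threshold, so the unadjusted count hung on 1 library. The labels do not name separate animals, so these p-values measure the spread between libraries, which may be technical.

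The libraries were first checked against the labelled cell type. Between monocytes and PMN in GS9820-treated mice 5248 genes rose in monocytes (37.6%) and 4477 fell (32.1%), 69.6% in either direction (limma, adjusted p below 0.05). In vehicle mice 4586 rose (32.8%) and 3804 fell (27.2%), 60.1% in either direction (limma, adjusted p below 0.05). Of 16 classical monocyte markers 14 rose and 1 fell in GS9820-treated mice, and 11 rose and 1 fell in vehicle mice. Of 23 mature neutrophil genes 0 rose and 20 fell in GS9820-treated mice, and 0 rose and 19 fell in vehicle mice. Both of these lists thus followed the label in both treatments, but not every marker list did. Of 12 nonclassical monocyte genes 3 rose and 3 fell in GS9820-treated mice, and 2 rose and 4 fell in vehicle mice. Among 16 specific and gelatinase granule genes 0 rose and 7 fell in GS9820-treated mice, and 1 rose and 4 fell in vehicle mice. The lists of the score compared unevenly: all 5 granulocytic score genes fell in monocytes of both treatments, while 0 of the 5 class II score genes passed in either. Cxcr2, the neutrophil chemokine receptor, was lower by 5.39 ± 0.62 (SE; limma adjusted p = 8.0e-06) in GS9820 monocytes than in GS9820 PMN. In vehicle mice the log2 difference of Cxcr2, monocytes minus PMN, was -5.15 ± 0.72 (SE; limma adjusted p = 6.3e-05). These comparisons share their monocyte libraries with the axis, so the values are set side by side and no overlap is drawn from them.

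All genes of the score are described next, although they chose the sides. Cxcr2 was at 6.49, 5.70 and 4.93 in the class II-side libraries, against 7.79, 7.62, 7.87 and 8.22 in the granulocytic-side libraries and 11.96 to 12.40 in PMN. Mmp9, a gelatinase of neutrophil granules, was at 6.40, 4.90 and 4.04 in the class II-side libraries, against 7.36, 7.47, 8.52 and 9.55 in the granulocytic-side libraries. Retnlg, a resistin-like protein of neutrophils, was at 5.11, 5.10 and 5.01 in the class II-side libraries, against 7.02, 8.02, 8.69 and 10.001 in the granulocytic-side libraries. For these 3 genes every granulocytic-side library lay above every class II-side library and below every PMN library. Il1r2, the decoy receptor for interleukin-1, differed by -2.10, and Fpr1, a receptor for formylated bacterial peptides, by -1.64, also with no overlap. Fpr1 was the narrowest, with 2.05 to 2.50 in the class II-side libraries and 2.72 in GS9820 3, against 3.89 to 6.04 in the other 3 granulocytic-side libraries.

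Of the class II score genes, Cd74 alone did not overlap, and by 0.02: it was at 12.23, 11.70 and 11.40 in the class II-side libraries, against 11.39, 9.09, 9.29 and 9.62 in the granulocytic-side libraries. Ciita was at 7.55, 7.32 and 6.38 in the class II-side libraries, against 6.62, 4.13, 4.49 and 4.05 in the granulocytic-side libraries. H2-Aa, an alpha chain of the class II molecule, was at 11.49, 10.75 and 10.04 in the class II-side libraries, against 10.54, 7.78, 7.97 and 8.33 in the granulocytic-side libraries. H2-Ab1 and H2-Eb1, both beta chains, differed by 2.51 and 2.52 and overlapped in the same way, through GS9820 3 and vehicle 3. PMN held these genes too: H2-Aa lay at 8.76 to 10.66 in PMN, above GS9820 1, vehicle 2 and vehicle 1.

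Upstream sequences are shown for class II genes, an antigen-processing protease, interferon-stimulated genes and cell cycle genes, as examples of the score and of the lists described after them. They are RefSeq sequences of build GRCm38.p6, the last 180 bases before the start site, written 5′ to 3′ on the strand of the gene. Capitals mark GATTGG, the core of the Y box (an inverted CCAAT), in H2-Aa, H2-Eb1, Top2a and Cenpf, and TTTC, any 2 bases and TTTC, a core of the interferon-stimulated response element (ISRE), in Ctss, Isg15 and Ifit3, both on either strand.
H2-Aa (chr17:34287824-34288003, - strand): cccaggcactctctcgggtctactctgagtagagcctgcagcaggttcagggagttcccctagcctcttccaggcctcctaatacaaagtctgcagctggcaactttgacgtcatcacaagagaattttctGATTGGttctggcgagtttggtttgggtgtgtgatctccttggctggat
H2-Eb1 (chr17:34305687-34305866, + strand): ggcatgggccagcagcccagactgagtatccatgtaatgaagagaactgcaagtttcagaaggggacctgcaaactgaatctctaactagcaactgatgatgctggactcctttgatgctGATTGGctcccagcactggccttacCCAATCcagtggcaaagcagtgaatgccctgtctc
Ctss (chr3:95526606-95526785, + strand): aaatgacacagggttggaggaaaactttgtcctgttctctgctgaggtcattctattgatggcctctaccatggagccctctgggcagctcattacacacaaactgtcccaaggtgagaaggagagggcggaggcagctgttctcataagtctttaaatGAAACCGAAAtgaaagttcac
Isg15 (chr4:156200819-156200998, - strand): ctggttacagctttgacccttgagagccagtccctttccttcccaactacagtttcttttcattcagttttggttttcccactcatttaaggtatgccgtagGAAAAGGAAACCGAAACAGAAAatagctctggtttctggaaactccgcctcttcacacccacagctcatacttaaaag
Ifit3 (chr19:34583349-34583528, + strand): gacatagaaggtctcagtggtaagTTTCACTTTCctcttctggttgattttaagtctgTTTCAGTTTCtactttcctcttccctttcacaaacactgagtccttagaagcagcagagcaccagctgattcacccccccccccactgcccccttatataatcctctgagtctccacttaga
Top2a (chr11:99024190-99024369, - strand): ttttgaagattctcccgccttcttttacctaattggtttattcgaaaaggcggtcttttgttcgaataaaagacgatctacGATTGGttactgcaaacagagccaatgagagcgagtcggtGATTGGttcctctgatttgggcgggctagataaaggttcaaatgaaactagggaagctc
Cenpf (chr1:189688087-189688266, - strand): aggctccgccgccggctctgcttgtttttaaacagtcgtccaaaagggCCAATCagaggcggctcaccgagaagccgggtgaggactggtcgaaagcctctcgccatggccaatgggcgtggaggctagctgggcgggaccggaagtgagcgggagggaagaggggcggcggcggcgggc
The 3 ISRE matches of Isg15 overlap each other and form 1 run of capitals. In the 250 bases before the start site GATTGG was found in 16.6% of 27025 genes with a promoter in the table. It was found in 8 of the 12 other class II presentation genes with a promoter, in 15 of 21 cell cycle genes, in 3 of 20 interferon-stimulated genes and in 2 of 20 mature neutrophil genes. The ISRE core was found in 3.46% of all genes, in 13 of 20 interferon-stimulated genes, in 1 of 12 other class II genes (Ctss), and in 0 of 21 cell cycle and 0 of 20 neutrophil genes. The motifs were chosen with the differences known, and a match is a description of letters only.

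Outside the score, other class II presentation genes were higher as a list: 9 of 15 kept members were higher in the class II-side and 0 lower, with a median difference of 0.69. H2-DMb1, a beta chain of the peptide exchange factor H2-DM, was at 9.10, 8.73 and 8.43 in the class II-side libraries, against 8.18, 6.36, 6.51 and 6.45 in the granulocytic-side libraries. H2-DMa, its alpha chain, differed by 1.68 and H2-DMb2 by 1.30. Cd40, a co-stimulatory receptor, was at 4.82, 5.04 and 4.82 in the class II-side libraries, against 4.24, 2.85, 3.03 and 3.11 in the granulocytic-side libraries. Ctss, the cathepsin that trims the invariant chain, whose upstream bases hold the single ISRE match of this list, was at 10.56, 10.51 and 10.87 in the class II-side libraries, against 10.10, 9.92, 8.99 and 9.59 in the granulocytic-side libraries. Rfx5, a subunit of the factor that binds class II promoters, was higher by 0.54, and its partners Rfxap and Rfxank both differed by 0.05 with overlap. With GS9820 3 on the class II-side, 7 of 15 were higher. GS9820 3 was the highest granulocytic-side library in all 4 of H2-DMa, H2-DMb1, H2-DMb2 and Cd40.

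MHC class I presentation genes differed by less, with 9 of 12 higher, 0 lower and a median difference of 0.53. Nlrc5, the class I transactivator, was at 5.13, 5.42 and 5.92 in the class II-side libraries, against 4.72, 4.53, 3.25 and 4.68 in the granulocytic-side libraries. Tap1, a subunit of the peptide transporter, differed by 0.70, the immunoproteasome subunit Psmb8 by 0.67, Tapbp (tapasin) by 0.57 and B2m, the light chain of class I, by 0.40. With GS9820 3 placed on the class II-side, 2 of 12 were higher, against 9.96% of all genes.

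Interferon-stimulated genes showed the highest share of higher members among the lists: 18 of 23 kept were higher, 0 lower, with a median difference of 1.25. Isg15, a ubiquitin-like modifier, was at 5.12, 5.62 and 6.16 in the class II-side libraries, against 4.57, 3.54, 2.73 and 3.74 in the granulocytic-side libraries. Ifit3, which binds viral RNA together with its relatives, was at 3.84, 4.17 and 6.25 in the class II-side libraries, against 3.56, 1.77, 1.61 and 3.32 in the granulocytic-side libraries. Oasl2 differed by 1.81 and Iigp1, an interferon-inducible GTPase, by 1.63. Iigp1 was low in level, with a mean of -0.43 in GS9820 monocytes and -0.35 in vehicle monocytes. Irf7, the regulator that amplifies interferon output, was at 8.14, 8.39 and 8.71 in the class II-side libraries, against 7.82, 6.85, 5.54 and 7.29 in the granulocytic-side libraries. Within the class II-side, vehicle 3 held the highest list mean and within the granulocytic-side vehicle 2 the lowest, so the list did not order the libraries as the score did. The list mean was 5.14 to 5.87 in the class II-side libraries, against 3.47 to 4.79 in the granulocytic-side libraries, and 5.19 to 5.96 in PMN. On this list the granulocytic-side was further from PMN than the class II-side was. Between monocytes and PMN, 1 of 23 rose and 8 fell in GS9820-treated mice, against 37.6% and 32.1% of all genes (limma, adjusted p below 0.05). In vehicle mice 1 rose and 9 fell, against 32.8% and 27.2% of all genes (limma, adjusted p below 0.05).

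**Figure D2:**
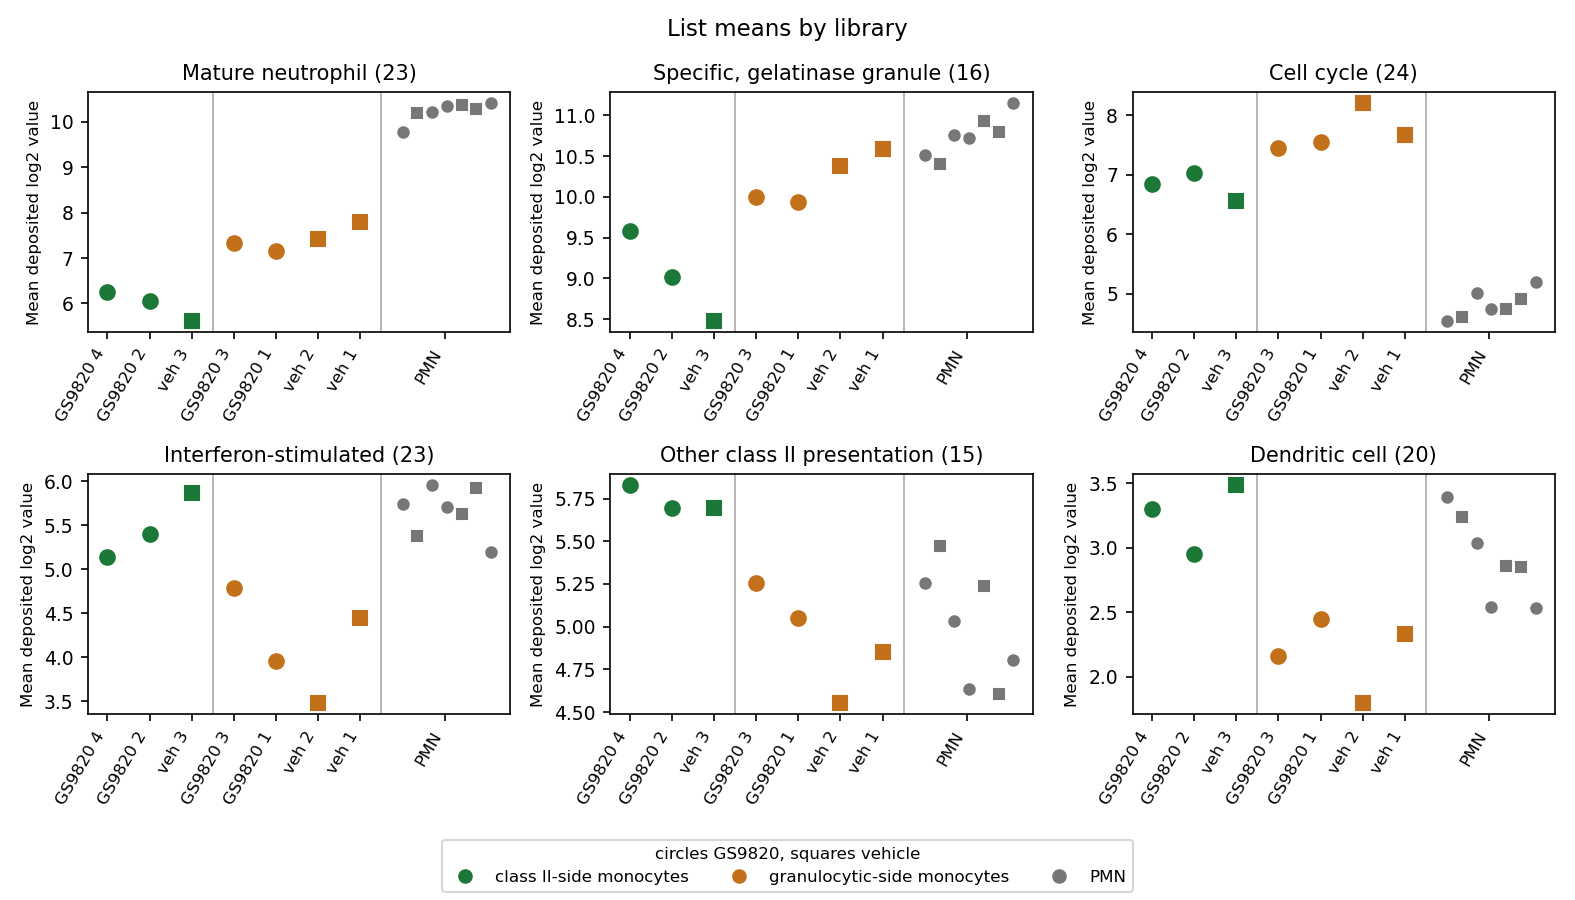
Mean deposited log2 value of 6 gene lists (number of kept members in brackets) in each library, class II-side monocytes left, granulocytic-side monocytes in the middle and the 7 PMN libraries at the right of each panel. The sides do not overlap in any of the 6 list means, but PMN lie beyond the granulocytic-side for mature neutrophil genes (9.78 to 10.42), below both sides for cell cycle genes (4.54 to 5.20) and level with the class II-side for interferon-stimulated genes (5.19 to 5.96).

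Mature neutrophil genes were lower in the class II-side: 13 of 23 were lower and 1 higher, with a median difference of -1.38. Stfa2, a stefin that inhibits cysteine proteases, was at -1.14, -1.32 and -2.64 in the class II-side libraries, against 3.89, 2.03, 3.87 and 5.003 in the granulocytic-side libraries and 3.88 to 8.16 in PMN. Its difference of -5.20 was the largest among the named genes. Its neighbours on chromosome 16 differed by -4.71 (BC100530), -4.27 (Stfa2l1) and -3.64 (Stfa3). These stefin genes are closely similar copies, so how reads were divided among them is uncertain, although each is counted singly here. Asprv1, an aspartic protease, was at 4.31, 3.62 and 2.78 in the class II-side libraries, against 6.37, 6.42, 7.28 and 7.85 in the granulocytic-side libraries. S100a8, an abundant calcium-binding protein of neutrophils and monocytes, was at 13.44, 13.27 and 12.84 in the class II-side libraries, against 14.05 in all 4 granulocytic-side libraries. The value 14.05 is the top of the shared distribution, so differences above it cannot be seen. The exception was Csf3r, the receptor for granulocyte colony-stimulating factor, which was higher in the class II-side by 0.23. Ly6g, the neutrophil surface marker, differed by -2.66 with overlap, and Il1b, which monocytes also make, by 1.59 with overlap. With GS9820 3 on the class II-side, 4 of 23 were lower and 2 higher.

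Specific and gelatinase granule genes, made in the intermediate stages of granulocyte maturation, were lower in 12 of 16 members and higher in 0, with a median difference of -1.06. Mmp25, a membrane-bound matrix metalloproteinase, was at 5.69, 4.47 and 3.42 in the class II-side libraries, against 6.73, 6.10, 7.19 and 7.80 in the granulocytic-side libraries. Adam8, a membrane protease, differed by -1.82, and Cd177, the neutrophil surface glycoprotein, by -1.60. Cd177 was at 10.57, 9.60 and 9.31 in the class II-side libraries, against 11.12, 10.73, 11.51 and 11.29 in the granulocytic-side libraries and 10.53 to 11.79 in PMN. Every granulocytic-side library thus lay within the range of PMN, as did GS9820 4 of the class II-side. Cd177 did not pass between monocytes and PMN in either treatment (limma adjusted p = 0.208 in GS9820-treated and 0.418 in vehicle mice). Camp, the cathelicidin precursor, was at 12.50, 12.19 and 11.34 in the class II-side libraries, against 12.76, 12.56, 13.02 and 12.92 in the granulocytic-side libraries and 11.84 to 12.76 in PMN. With GS9820 3 on the class II-side, 4 of 16 were lower.

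Azurophil granule and promyelocyte genes, the first to be made in the lineage, were lower in 4 of 11 members and higher in 0, with a median difference of -0.75. Serpinb1a, an inhibitor of neutrophil elastase, was at 9.54, 9.10 and 8.32 in the class II-side libraries, against 10.37, 9.98, 10.81 and 10.67 in the granulocytic-side libraries. Gfi1, a repressor needed for neutrophil formation, differed by -1.01 and Ms4a3, a marker of granulocyte and monocyte progenitors, by -0.75. Mpo, myeloperoxidase, overlapped: it was at 8.996, 9.63 and 9.52 in the class II-side libraries, against 9.49, 9.42, 11.29 and 10.08 in the granulocytic-side libraries. In PMN Mpo lay at 2.72 to 6.33. With GS9820 3 on the class II-side, 0 of 11 were lower. For this list 7 of 11 rose in monocytes against PMN in GS9820-treated mice and 8 of 11 in vehicle mice, with 0 falling in either (limma, adjusted p below 0.05). The shares of all genes that rose were 37.6% and 32.8%. Mpo was thus low in PMN, where Mmp25 of the later granules (8.25 to 9.22) and Cxcr2 (11.96 to 12.40) were high.

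Outside the score, cell cycle genes had the highest share of members apart between the sides: 23 of 24 were lower in the class II-side and 0 higher, with a median difference of -0.77. Cenpf, a kinetochore protein, was at 4.61, 4.89 and 4.64 in the class II-side libraries, against 5.69, 6.03, 6.18 and 5.90 in the granulocytic-side libraries. Plk1, a mitotic kinase, differed by -1.20, Ccnb1 (cyclin B1) by -1.16 and Cdc20, an activator of the anaphase-promoting complex, by -1.16. Mki67, the proliferation antigen Ki-67, was at 9.04, 9.21 and 8.83 in the class II-side libraries, against 9.86, 9.99, 10.25 and 10.02 in the granulocytic-side libraries and 7.22 to 7.92 in PMN. Genes of the replicative helicase differed less, with -0.34 for Mcm4 and -0.67 for Mcm7, and Pcna, the sliding clamp, differed by -0.32. Tyms overlapped. The list mean was 6.55 to 7.03 in the class II-side libraries, against 7.45 to 8.21 in the granulocytic-side libraries and 4.54 to 5.20 in PMN. All 24 members rose in monocytes against PMN in both treatments (limma, adjusted p below 0.05), so on these genes the granulocytic-side lay further from PMN than the class II-side did. With GS9820 3 on the class II-side, 17 of 24 were lower.

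Monocyte markers were higher or overlapped, with 1 exception. Of 16 classical monocyte genes 5 were higher and 1 lower, with a median difference of 0.78. Without GS9820 4 there were 9 higher, against 22.6% of all genes. Csf1r, the receptor for colony-stimulating factor 1, was at 10.48, 10.42 and 10.62 in the class II-side libraries, against 9.95, 9.61, 8.67 and 9.42 in the granulocytic-side libraries. Ms4a4c differed by 1.18, Plac8 by 1.08 and Clec4a3, a C-type lectin, by 0.93, while Cd14, the co-receptor for lipopolysaccharide, was lower by 0.33 in the class II-side. Ly6c2, the marker of classical monocytes, differed by -0.16 with overlap. Of 12 nonclassical monocyte genes 5 were higher and 0 lower, with a median difference of 0.60. Adgre4 was at 7.72, 7.62 and 7.66 in the class II-side libraries, against 6.91, 5.88, 4.68 and 6.71 in the granulocytic-side libraries. Ace, Cx3cr1 and Nr4a1 differed by 1.11, 0.71 and 0.60. Of the 12, 1 was higher with GS9820 3 on the class II-side.

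Dendritic cell genes were higher in 9 of 20 members and lower in 0, with a median difference of 0.85. The list mean was 2.95 to 3.48 in the class II-side libraries, against 1.79 to 2.45 in the granulocytic-side libraries and 2.53 to 3.39 in PMN. Between monocytes and PMN, 5 of 20 rose and 6 fell in GS9820-treated mice, against 37.6% and 32.1% of all genes (limma, adjusted p below 0.05). In vehicle mice 1 rose and 6 fell, against 32.8% and 27.2% of all genes (limma, adjusted p below 0.05). Cd209a, a lectin of monocyte-derived dendritic cells, was at 4.08, 3.18 and 3.69 in the class II-side libraries, against 0.93, 0.41, 0.86 and -1.52 in the granulocytic-side libraries and 0.47 to 5.48 in PMN (median 4.55). Clec10a, a galactose-binding lectin, was at 6.62, 6.35 and 5.65 in the class II-side libraries, against 4.95, 3.99, 3.98 and 3.93 in the granulocytic-side libraries. Irf4, a transcription factor of type 2 conventional dendritic cells, was at 6.71, 6.23 and 6.52 in the class II-side libraries, against 5.92, 4.26, 4.28 and 4.23 in the granulocytic-side libraries, and Batf3 differed by 1.82. Of the 20, 6 were higher with GS9820 3 on the class II-side. Flt3, Zbtb46, Xcr1, Clec9a and Siglech, which mark dendritic cells or their subsets, all overlapped. The summed linear value of the list was 655 to 825 in the class II-side libraries, against 260.5 to 453 in the granulocytic-side libraries. In bulk libraries, more cells of a type and more RNA per cell cannot be told apart, and the part of dendritic cells in the class II-side values was not tested.

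The 12 genes with the largest higher differences outside the score (2.25 to 3.52) included 4 members of these lists, Cd209a, Clec10a, Irf4 and H2-DMb1, and also Tlr11, an endosomal receptor for profilin. Slc15a2, a peptide transporter, was at 3.16, 2.34 and 3.29 in the class II-side libraries, against -2.25, -1.40, 1.32 and 0.67 in the granulocytic-side libraries and -0.05 to 5.58 in PMN (median 4.18). Tlr11 was at 3.33, 3.06 and 3.02 in the class II-side libraries, against 1.66, 0.47, -0.41 and 0.32 in the granulocytic-side libraries. Slc46a3, a lysosomal transporter, was at 6.54, 5.83 and 6.26 in the class II-side libraries, against 4.84, 3.53, 3.34 and 3.91 in the granulocytic-side libraries. Ifi205, a member of the interferon-inducible p200 family, differed by 2.25, and Ckb, brain-type creatine kinase, by 2.27. Arsi, Fam83a and Cd300ld2 completed the set, with Fam83a below 2 in every monocyte library. Against PMN, 4 of the 12 rose in monocytes and 1 fell in GS9820-treated mice, beside 37.6% and 32.1% of all genes (limma, adjusted p below 0.05). In vehicle mice 0 rose and 1 fell, beside 32.8% and 27.2% of all genes (limma, adjusted p below 0.05).

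The 12 largest lower differences (-5.20 to -2.30) held Stfa2, Stfa2l1, Stfa3, Asprv1 and Mmp25, already given. BC100530 was left out of the 12 because it has a clone name, as predicted models were. Crispld2, a secreted protein, was at 3.68, 2.58 and 1.78 in the class II-side libraries, against 4.28, 5.82, 5.51 and 6.39 in the granulocytic-side libraries. Slc2a3, the glucose transporter GLUT3, was at 6.22, 4.95 and 4.36 in the class II-side libraries, against 7.11, 6.52, 7.57 and 7.69 in the granulocytic-side libraries and 8.94 to 9.73 in PMN. Inhba, the activin A subunit, differed by -2.39, Col5a1, a fibrillar collagen chain, by -2.61 and Ceacam10 by -2.30. Pnpla1 and Ces2e, both lipid or ester hydrolases, differed by -2.51 and -2.94. Against PMN, 10 of the 12 fell in monocytes in GS9820-treated mice and 9 in vehicle mice, with 0 rising in either (limma, adjusted p below 0.05). The shares of all genes that fell were 32.1% and 27.2%. Ces2e did not follow PMN in level: it was at 1.10 to 1.59 in 3 of the granulocytic-side libraries, and spread from -2.03 to 1.67 in PMN.

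**Figure D3:**
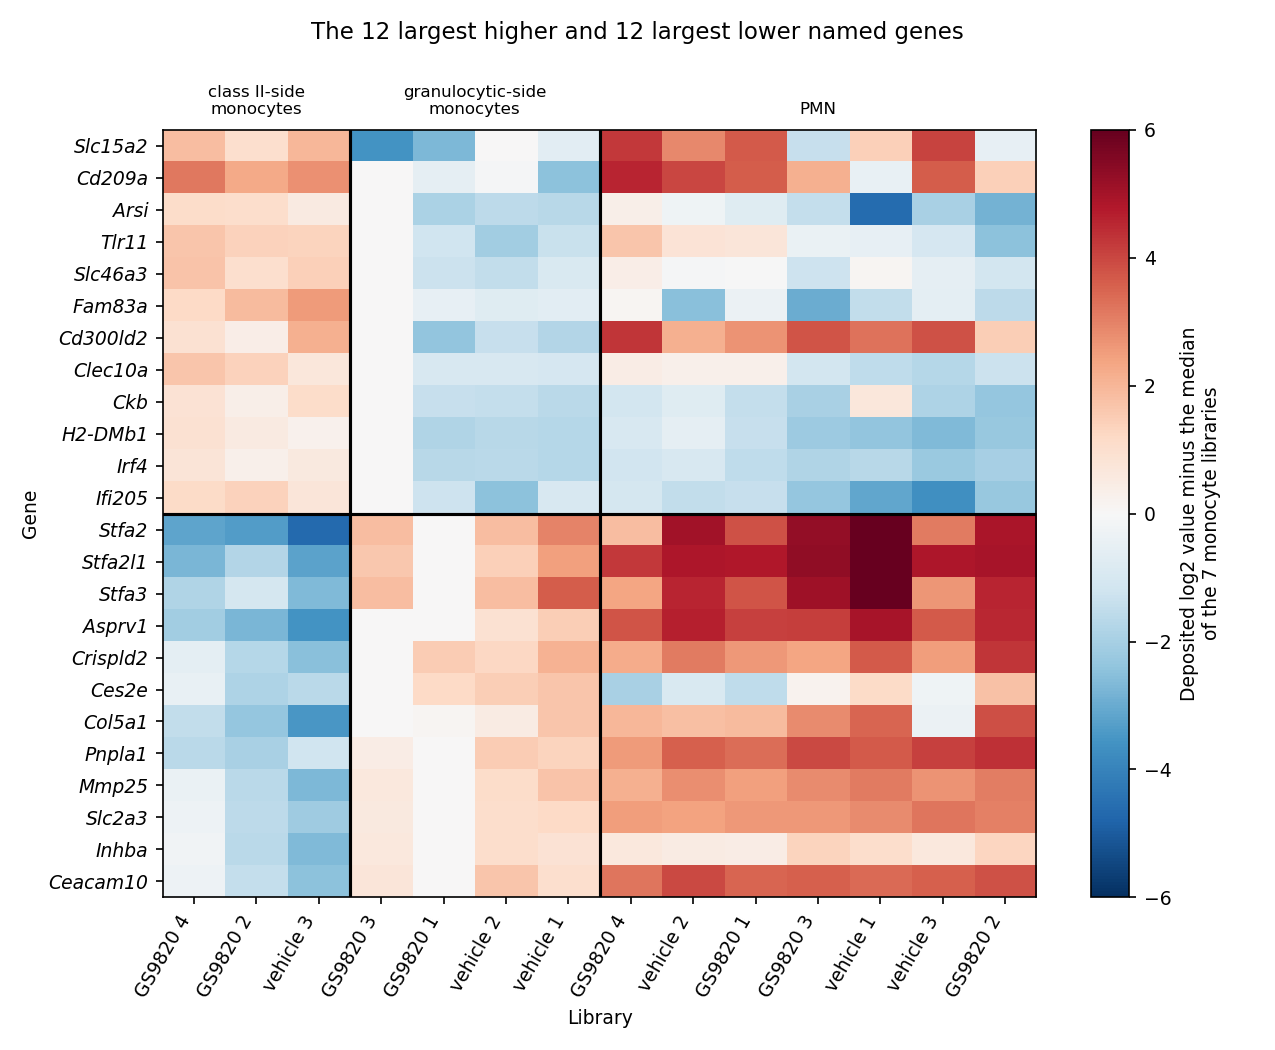
Deposited log2 values of the 12 largest higher and 12 largest lower named genes, each minus the median of the 7 monocyte libraries (colour scale capped at 6 either way), with class II-side monocytes left, granulocytic-side monocytes next and PMN right. Most of the lower genes are also high in PMN, from Stfa2 (3.88 to 8.16) to Slc2a3 (8.94 to 9.73), while among the higher genes Irf4 (3.70 to 4.98) and Ifi205 (2.68 to 5.30) are low in PMN and Cd300ld2 (2.21 to 5.01), Cd209a (0.47 to 5.48) and Slc15a2 (-0.05 to 5.58) reach higher values in PMN than in any monocyte library.

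Of all genes 13.8% were lower and 15.1% higher, the shares to set beside the lists that follow. Among chemoattractant receptors and integrins 6 of 21 were lower and 2 higher, and with GS9820 3 on the class II-side 3 were lower and 2 higher. Without any 1 of GS9820 1, GS9820 3 and GS9820 4, 4 were higher, against 19.5%, 18.4% and 22.6% of all genes. C5ar1, the receptor for complement C5a, was at 6.33, 5.67 and 5.19 in the class II-side libraries, against 7.04, 7.37, 7.55 and 7.90 in the granulocytic-side libraries. S1pr4 differed by -1.72, Fpr2 by -1.43 and Ccr1 by -1.18, while Ccr2, the receptor that brings monocytes out of the marrow, differed by 0.66 with overlap. Myeloid suppressor effectors were lower in 5 of 11 and higher in 1, but with GS9820 3 on the class II-side 0 were lower and 2 higher. Ncf1, a subunit of the phagocyte oxidase, was at 10.03, 9.37 and 9.13 in the class II-side libraries, against 10.68, 10.38, 10.98 and 10.98 in the granulocytic-side libraries, Vegfa differed by -1.30 and Ptges, a prostaglandin E synthase, by -1.04. Tgfb1 was the higher member, by 0.79, and Arg1 differed by 0.53 and Cd274 (PD-L1) by 1.85, both with overlap. Matrix proteases and inhibitors were lower in 3 of 13 and higher in 0, and with GS9820 3 on the class II-side 2 were lower and 2 higher. Trem and Clec receptors were divided, 4 of 15 higher and 4 lower (3 and 1 with GS9820 3 on the class II-side), and Trem1, an amplifier of inflammatory signals, differed by -1.93 and Treml2 by -1.39.

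The next lists also stand beside 15.1% of all genes higher and 13.8% lower. Among myeloid transcription factors 8 of 24 were higher and 3 lower, against 5 and 2 with GS9820 3 on the class II-side. Irf4, Batf3, Etv3, Relb, Irf5, Irf8, Nr4a1 and Runx3 were higher, and Mxd1, an antagonist of MYC, Gfi1 and Id2 were lower. Spi1, which encodes the myeloid master factor PU.1, was level, at 8.97 to 9.10 in the class II-side libraries, against 8.91 to 8.999 in the granulocytic-side libraries, and Cebpe, a factor of granule gene expression, differed by -1.44 with overlap. Toll-like receptors and adaptors were higher in 3 of 11 (Tlr11, Tlr9 and Unc93b1, the chaperone of endosomal Toll-like receptors) and lower in 1 (Tlr4, by -0.37). The count changed with GS9820 3: 8 of 11 were higher with it on the class II-side and also without it, and 6 without GS9820 4. The shares of all genes under these settings were 9.96%, 18.4% and 22.6%. The IL-1 family and inflammasome list had 4 of 11 higher, among them Il18 by 1.09 and Casp1 by 0.72, and 1 lower, Il18rap by -2.15. Innate cytokines and mediators had 3 of 13 higher and 1 lower, Osm by -0.94, against 1 higher and 0 lower with GS9820 3 on the class II-side. Fc receptors had 1 of 6 higher and 1 lower, Fcgr4 by -1.24, near the shares of all genes. Without GS9820 2, 3 were higher, against 19.6% of all genes.

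The subunits of PI3K, the target family of GS9820, overlapped or differed little, with 2 of 8 higher and 0 lower. There was 1 higher with GS9820 3 on the class II-side and 4 without GS9820 4. Of all genes 15.1% were higher, 9.96% with GS9820 3 on the class II-side and 22.6% without GS9820 4. Pik3cd, which encodes p110δ itself, was at 8.69, 8.83 and 9.01 in the class II-side libraries, against 8.51, 8.49, 8.06 and 8.24 in the granulocytic-side libraries, a difference of 0.47. Pik3ca, Pik3cb and Pik3cg differed by 0.27, -0.74 and 0.09 with overlap. Pik3r6, an adaptor of p110γ, was higher by 0.19.

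**Figure D4:**
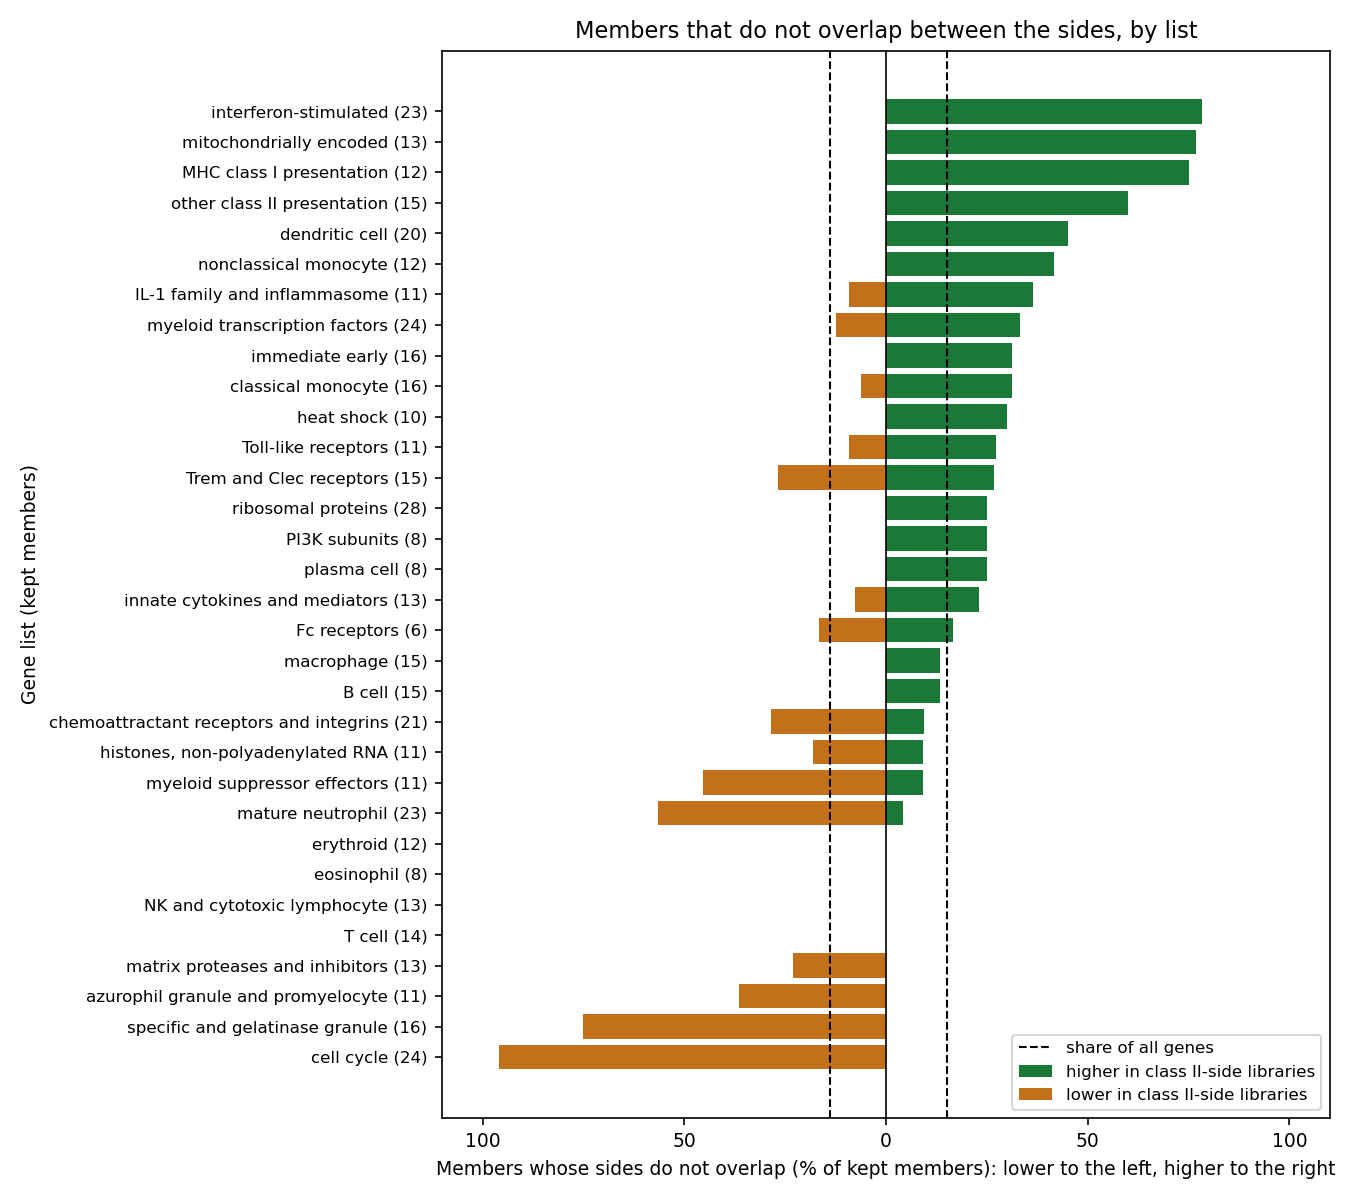
Share of the kept members of each gene list (number in brackets) whose sides do not overlap, higher in class II-side libraries to the right and lower to the left, with dashed lines at the shares of all kept genes (15.1% higher and 13.8% lower). The score lists and lists with fewer than 5 kept members are not drawn. Cell cycle (23 of 24 lower) and specific and gelatinase granule genes (12 of 16 lower) lie furthest left, and interferon-stimulated genes (18 of 23 higher) furthest right.

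Markers of other cell types and signs of RNA quality were examined along the same axis, where 15.1% of all genes were higher and 13.8% lower. All 14 T cell genes and all 13 NK and cytotoxic lymphocyte genes overlapped between the sides, although their median differences were 0.76 and 1.05. Without vehicle 1, 7 of 13 NK genes were higher, against 16.7% of all genes. T cell genes summed to 51.2 to 162 in the class II-side libraries, against 27.1 to 256 in the granulocytic-side libraries on the linear scale, with vehicle 1 the highest, and NK genes summed to 107 to 135 in the class II-side libraries, against 105 to 276 in the granulocytic-side libraries. B cell genes, of a cell type that itself carries class II, Cd74 and Ciita, had 2 of 15 higher (Fcer2a by 1.55 and Cd79b by 0.86). That count was near the share of all genes, and the median difference of the list was 0.73. Without GS9820 1, 10 of 15 B cell genes were higher, against 19.5% of all genes, with a median difference of 1.12. Their part in the class II difference was not tested. They summed to 561 to 795 in the class II-side libraries, against 392 to 922 in the granulocytic-side libraries. Plasma cell genes had 2 of 8 higher, Irf4 and Prdm1. Macrophage genes had 2 of 15 higher, Cd163 by 1.80 and Adgre1 by 0.90, near the share of all genes. With GS9820 3 on the class II-side 4 macrophage genes were higher, and 5 without GS9820 3, against 9.96% and 18.4% of all genes. Without vehicle 3 there were 4 higher, against 18.2% of all genes. Without GS9820 4 there were 4 higher and 4 lower, against 22.6% and 19.7% of all genes. Erythroid genes (12 of 12 overlapping) were highest in vehicle 2, with a list mean of 5.68. All 8 eosinophil, 4 mast cell and basophil, and 2 pancreas and carcinoma markers kept overlapped, the platelet list had 1 of 4 lower (Gp1bb by -2.02), and the endothelial and stromal list 1 of 3 higher and 1 lower. Krt8, Krt18, Krt19 and Epcam were not among the kept genes. The part of these cells in the differences was not tested.

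For the lists below, 15.1% of all genes were higher and 13.8% lower. Mitochondrially encoded genes were higher in 10 of 13 members and lower in 0, with a median difference of 0.34, and in 3 of 13 with GS9820 3 on the class II-side. Their list mean was 12.47 to 12.60 in the class II-side libraries, against 11.82 to 12.32 in the granulocytic-side libraries. Ribosomal protein genes were higher in 7 of 28 and lower in 0, with a median difference of 0.13. With GS9820 3 on the class II-side 0 of 28 were higher, against 9.96% of all genes. Without GS9820 4 there were 16 higher, against 22.6% of all genes, and without GS9820 1 there were 12, against 19.5%. Immediate early genes were higher in 5 of 16, with Atf3 by 1.52 (3 of 16 with GS9820 3 on the class II-side and 8 without GS9820 2). Heat shock genes were higher in 3 of 10, with Hspa1a by 1.29 (1 of 10 with GS9820 3 on the class II-side and 5 without vehicle 3). The shares of all genes higher were 9.96% with GS9820 3 on the class II-side, 19.6% without GS9820 2 and 18.2% without vehicle 3. Replication-dependent histones and non-polyadenylated RNAs, whose recovery differs between library kits, had 1 of 11 higher and 2 lower, with a median difference of -0.60, with 5 lower without GS9820 2 or without GS9820 3, and 4 lower with GS9820 3 on the class II-side. Per the labels, 2 kits were in use for the sorted cells, with no kit named for a library, so the kit and the side cannot be told apart here. The part of kit and RNA quality in the axis was not tested.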

How the data were processed

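RNA sequencing of sorted splenic monocytes and PMN was used as deposited, 1 file per library with 14131 genes. The deposited values are log2 values, named log2 RPKM by the authors. Per the submitters' processing notes, TopHat2, STAR and limma and the build mm10 were used, and their versions and roles are not given in the sources used here. Libraries were made with TruSeq or NuGEN kits and run in 4 lanes, per the labels' protocols. Library medians were 4.560 to 4.564 and linear sums 1429080 to 1430327, so the libraries share nearly 1 distribution, depth is unknown, and no interval or count test was made. Correlations between monocyte libraries were 0.914 to 0.984, with 0 identical pairs.

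Symbols came from GENCODE M21 (GRCm38), for 13886 identifiers, and 245 had none. Chromosomes X and Y, and the sex of the animals, were not analysed here. Genes with a value of at least 0 in at least 3 sorted-cell libraries were kept (13968). The sides of the axis were described by medians and overlap. The 4 groups of sorted cells were compared in 1 limma 3.58.1 fit (eBayes with trend, two-sided, R 4.3.3), with Benjamini-Hochberg adjustment per comparison and a threshold of 0.05. On simulated data, the treatment comparison recovered 50% of genes changed by a fold of 2 and 92% of those changed by a fold of 8, with 7 calls among the other genes. Its noise was independent between genes and libraries, with 1 SD per gene for all groups. The score gene Mmp9 had an SD of 1.19 in GS9820 and 2.93 in vehicle monocytes, against 0.16 and 0.03 in PMN. The simulation lacked such uneven spread and the variation shared along the axis, so recovery in monocytes may be lower.

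The libraries, gene lists and motifs were chosen with earlier results of these data known. Named genes are the 10 score genes, the 12 largest higher and 12 largest lower differences with a higher median of at least 1 (leaving out predicted models, pseudogenes and small RNA genes), up to 4 members of each list that did not overlap or else 2, the 2 of highest mean, and Pik3ca, Pik3cb, Pik3cd and Pik3cg. Other members of a list named in the text were chosen after their values were seen. Alternatives were other scores, filters, log2 of the linear value plus 1, each library left out, each treatment alone, a replicate block and, added after seeing the data, GS9820 3 on the class II-side.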

Additional observations from a re-analysis of the deposited data

Results flagged for a closer look

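Among 62 sets of values examined in the 4 GS9820 libraries of monocytes or PMN (the score, its 2 components, its 10 genes and the list means), 1 library stood far from the other 3. In GS9820 monocytes the list mean of mast cell and basophil genes was 1.75 in GS9820 1 and 1.10 to 1.14 in the others, a gap of 0.925 of the whole range. About 1 set in 20 is flagged by chance. No named gene passed the adjusted threshold of limma for a difference of the treatment effects between monocytes and PMN (0 of 13968 genes over all, 269 at an unadjusted p below 0.05).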

How the results depend on the processing

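All 7 libraries kept their side under log2 of the linear value plus 1, standardised score genes, values centred on the treatment mean and each of the 10 score genes left out. These scores reuse the values that cut the sides, with a step of 1.95 at the cut, so they do not test the axis. Counts of higher and lower genes moved by under 1.5 times with no filter and a filter at 2. The added 1 keeps the order of the values, so it could not change these counts. Leaving out each library in turn gave 2332 to 3163 higher and 2031 to 2755 lower genes, against 2105 and 1926, the highest of both without GS9820 4. They were 3551 and 3196 in GS9820 libraries alone (2 against 2), 6201 and 5239 in vehicle libraries alone (1 against 2), and 1391 and 1093 with GS9820 3 on the class II-side: fewer libraries make overlap rarer, and the cause of the last fall was not tested. Of the differences of named genes 2199 values stayed within 1 SD of the sides and 173 moved further. No gene whose sides did not overlap changed sign, but none of these settings could reverse such a sign.

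For GS9820 against vehicle in monocytes the count was 0 under every alternative run, including monocytes alone, the score as a covariate and no trend. Monocytes against PMN gave 9017 to 9319 genes in GS9820-treated mice and 7485 to 8275 in vehicle mice with a library left out. Same-numbered monocyte and PMN libraries correlated from -0.223 to 0.457 in their deviations, and same-numbered GS9820 and vehicle monocytes from -0.438 to 0.218. In 5 of 7 pairs the monocyte library correlated best with its own number. The labels tie no number to a shared animal, batch or day, and not every pair's correlation was over 0.1, so the numbers were not taken as pairs, and the own-number matches are a hint from the data only. A replicate block gave 0, 9770 and 8414 genes for the 3 comparisons, against 0, 9725 and 8390. With vehicle 3 or GS9820 3 left out in turn, 23 cell cycle genes were lower each time, and 14 and 13 mature neutrophil genes. Higher were 19 and 20 interferon-stimulated genes and 10 and 9 other class II genes. Leaving out a library can only keep or raise such counts, so they do not test the lists. Depth is unknown, and the shared distribution caps the most abundant genes.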
